A study of Mus musculus with 43 samples.

Results

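The Gramd1 family of the mouse was followed here across colon epithelium and colon fibroblasts, as the 3 genes Gramd1a, Gramd1b and Gramd1c among 52636 genes in each of 2 expression tables. The members were taken by gene name, in every library. The study asked how colon organoids and colon fibroblasts respond to regorafenib, a multi-kinase inhibitor given in colorectal cancer, and whether blocking autophagy with autogramin-2, a small molecule that inhibits the GRAMD1A protein, changes that response. Organoids are small epithelial structures grown from crypt cells in a gel. Those called colonoids came from 3 Vil-cre/ERT2 Apc wt/wt mice and those called tumoroids from 3 Vil-cre/ERT2 Apc flox/flox mice. All of these mice carried the tamoxifen-inducible Cre under the Villin promoter, which is active in gut epithelium, and all had received tamoxifen in vivo. Each line came from 1 mouse and was cultured for 6 days with vehicle (Ve, DMSO), regorafenib at 4 µM (R4), regorafenib at 8 µM (R8) or 5-fluorouracil at 1 µM (FU), which gave 24 libraries. Colon fibroblasts of 4 lines from wild-type C57BL/6 mice were cultured for 7 days with vehicle, regorafenib at 4 µM, regorafenib at 10 µM (R10), autogramin-2 at 1 µM (A1) or regorafenib at 4 µM with autogramin-2 at 1 µM (R4A1). Line M11 had no R10 library, so the fibroblasts gave 19 libraries. The study's supplementary list of fibroblast lines does not name the lines M1(2) and M11. Autogramin-2 was given to fibroblasts alone among these libraries, and the name M3 stands for a tumoroid line and for a fibroblast line that were treated here as unrelated.

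GRAMD1 proteins, also called Asters, sit in the endoplasmic reticulum membrane and reach across contact sites to the plasma membrane. Their GRAM domain binds acidic lipids of the plasma membrane, and their second lipid-binding domain (the ASTER or VASt domain) takes up accessible cholesterol and carries it to the endoplasmic reticulum, where it lowers the processing of SREBP2, the transcription factor of sterol synthesis. GRAMD1A has in addition been placed at sites where autophagosomes form, GRAMD1B is known for cholesterol uptake in steroid-producing tissue and, with GRAMD1C, for dietary cholesterol absorption in the small intestine, and GRAMD1C has been linked to mitochondrial cholesterol and autophagy. In GRCm38 with the GENCODE M21 annotation, Gramd1a (ENSMUSG00000001248) spans chr7:31130127-31155896, Gramd1b (ENSMUSG00000040111) spans chr9:40293233-40531383 and Gramd1c (ENSMUSG00000036292) spans chr16:43980350-44063345. All 3 lie on the minus strand and code for proteins, with 14, 14 and 6 annotated transcripts, respectively.

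Values are in CP20M, the number of reads a gene would have had in a library of 20000000 reads, rounded up by the authors and not divided by gene length. Libraries held an estimated 512599 to 22368415 gene reads in organoids and 7949951 to 12825879 in fibroblasts, as read from the step between low values. The R4 library of colonoid line M41 was the shallowest, and the next organoid library had 4371822 reads. Of the 7 epithelial markers examined, 6 reached 200 CP20M in all 24 organoid libraries, and Krt20 ranged from 5 to 2860. The summed epithelial markers were 69737 to 181028 CP20M in organoids and 35 to 309 in fibroblasts. The summed fibroblast markers were 12 to 123 CP20M in organoids and 110872 to 185810 in fibroblasts. Fibroblast libraries also carried markers of other stromal cells, with summed endothelial markers of 747 to 20692 CP20M, summed smooth muscle and pericyte markers of 1644 to 16849 CP20M and summed glia and neuron markers of 267 to 5954 CP20M. Apc itself stood at 1542 to 4944 CP20M in colonoids and at 3813 to 6032 in tumoroids, and a gene-level count that includes exons outside the deleted part does not check the deletion.

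Under vehicle, Gramd1a had the highest mean level per length of the family in both compartments, and the order of the other members differed between them. Levels between genes were compared only as CP20M per kilobase of the union of annotated exons. In the 6 vehicle organoid libraries, Gramd1a stood at 42.4 ± 17.6 CP20M per kb (SD, n = 6), Gramd1c at 23.1 ± 2.24 and Gramd1b at 13.3 ± 6.66. In the 4 vehicle fibroblast libraries, Gramd1a stood at 172 ± 24.5 CP20M per kb (SD, n = 4), Gramd1b at 62.6 ± 34.4 and Gramd1c at 5.93 ± 0.981. Gramd1a exceeded both other members within 23 of 24 organoid libraries. The exception was the vehicle library of tumoroid line F11, with Gramd1a at 21.0, Gramd1c at 21.3 and Gramd1b at 25.2 CP20M per kb. Gramd1c exceeded Gramd1b in all but 2 organoid libraries, while Gramd1b exceeded Gramd1c in all 19 fibroblast libraries. The R4 library of colonoid line M41 held 1 read of each of these genes, so their order there follows from exon length alone. The 2 tables were normalized separately and bear different run names, so levels across them are set side by side without a test. Differences of cell type and of run cannot be told apart. In bulk libraries, fewer cells that express a gene cannot be told apart from less RNA per cell.

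As shares of the summed level per length, Gramd1a accounted for 52.5% ± 11.5, Gramd1c for 30.2% ± 4.58 and Gramd1b for 17.3% ± 10.0 of the family in vehicle organoids (SD, n = 6). In R4 organoids the share of Gramd1a was 83.4% ± 7.88, with a range of 73.6% to 93.7%, and in R8 organoids it was 78.9% ± 8.57, with a range of 66.2% to 91.0%. The vehicle range was 31.1% to 64.5%, so no regorafenib library overlapped the vehicle libraries. The R4 share of colonoid line M41, 89.0%, rests on 13 reads of Gramd1a and 1 read each of Gramd1b and Gramd1c. In fibroblasts the share of Gramd1a was 72.6% ± 7.59 under vehicle (SD, n = 4) and 82.9% ± 3.11 under R10 (SD, n = 3), with ranges of 63.3% to 78.8% and 79.9% to 86.1%, respectively. Line M11, which has no R10 library, had the lowest vehicle share, and over the 3 lines with both treatments the vehicle share was 75.7% ± 5.45 (SD, n = 3). Gramd1c made up 2.53% ± 0.58 of the family in vehicle fibroblasts.

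**Figure D1:**
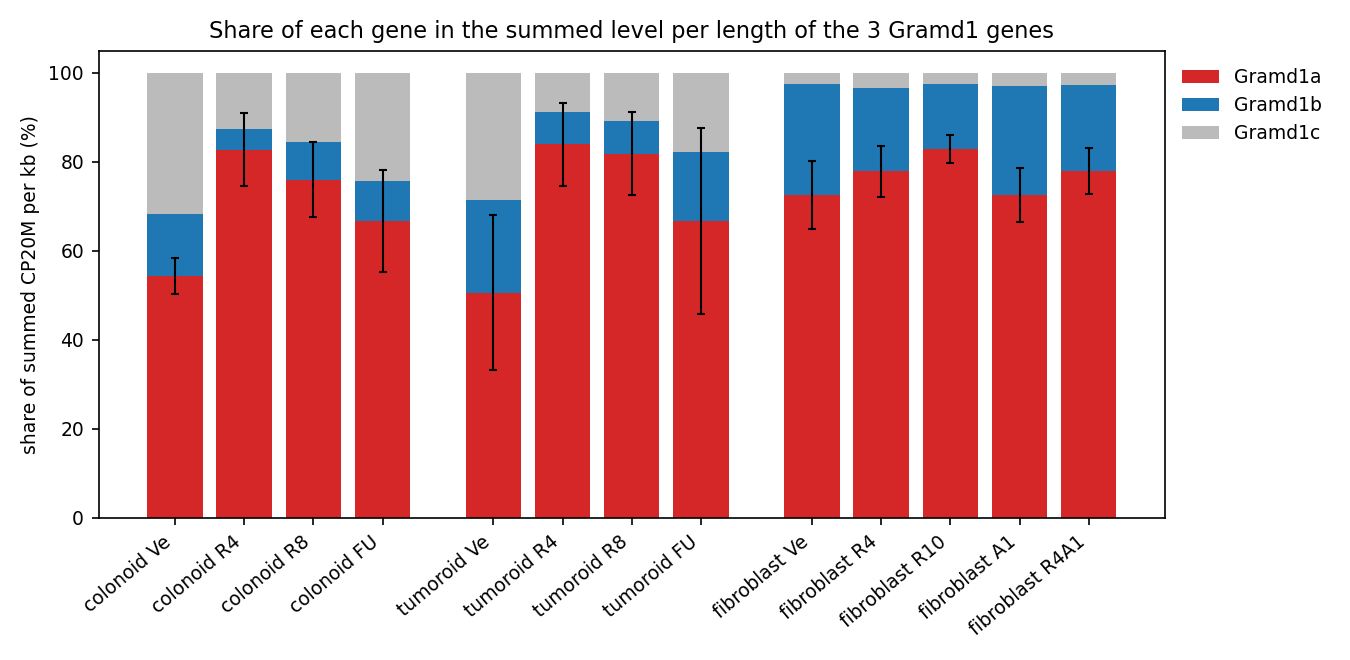
Mean share (%) of Gramd1a, Gramd1b and Gramd1c in their summed CP20M per kilobase of exon, for each organoid and fibroblast group (n = 3 per organoid group, n = 4 per fibroblast group and n = 3 for R10), with the SD of the Gramd1a share as black bars. The Gramd1a share is about 50% in vehicle organoids and rises above 75% in the R4 and R8 organoid groups, and Gramd1c is a thin band in fibroblasts.

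Regorafenib was accompanied by more Gramd1a RNA in every organoid line, while Gramd1b and Gramd1c showed no change that passed the tests. In colonoids, Gramd1a went from 249, 139 and 239 CP20M under vehicle (lines M41, M40 and M1) to 508, 525 and 1226 under R4 and to 1174, 656 and 938 under R8. In tumoroids, it went from 110, 227 and 370 CP20M under vehicle (lines F11, M3 and M14) to 741, 1094 and 2442 under R4 and to 652, 1222 and 1928 under R8. The highest vehicle value was 370 and the lowest regorafenib value 508, so the 12 regorafenib libraries lay above all 6 vehicle libraries. The share of all genes that separated in this way was not counted. The value of 508 is from the shallowest library, where it rests on 13 reads (95% counting interval 6.92 to 22.2 reads). Within lines, the ratio of R4 to vehicle ran from 2.04 to 6.74 with a median of 4.97, and that of R8 to vehicle from 3.92 to 5.93 with a median of 4.97.

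In the fit over the 18 vehicle, R4 and R8 organoid libraries, Gramd1a was 4.37-fold higher with regorafenib (95% interval 2.77 to 6.91), a log2 fold change of 2.13 ± 0.31 (SE) with an adjusted p of 0.000201 by limma. It was called at an adjusted p under 0.001 and a fold of at least 1.5, as were 2.82% of the 11320 genes tested as higher and 2.16% as lower. By size, 78 of these 11320 genes had a larger increase. The median log2 fold change over all genes tested was −0.10, and with TMM scaling it was −0.02, while the called genes went from 319 higher and 244 lower to 414 higher and 194 lower. Gramd1a lost this call when line M40, M1 or the tumoroid line M3 was left out, with log2 fold changes of 2.07 to 2.17 and adjusted p-values of up to 0.00302. The summed macrophage markers were 427 to 573 CP20M in vehicle organoids, 541 to 906 under R4 and 596 to 3247 under R8, with Cd68 at 32 to 2659 and Csf1r at 352 to 625 over all 24 libraries. Of these markers, Ptprc, Lyz2, C1qa and C1qb stood at or below 7 CP20M in all of these libraries, and Adgre1 at or below 40. The part of these marker changes in the Gramd1a values was not tested. Fold changes throughout are on the log2(CP20M + 20) scale, which understates those of low genes.

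Each dose alone gave a similar value for Gramd1a. It was 4.19-fold higher under R4 (95% interval 2.47 to 7.11, limma adjusted p = 0.00156) and 4.57-fold higher under R8 (95% interval 2.69 to 7.75, adjusted p = 0.000548). It passed an adjusted p of 0.05 and a fold of 1.5 in both comparisons, as did 5.56% of genes as higher under R4 and 8.59% under R8. Under TMM scaling, the called genes under R4 went from 629 higher and 913 lower to 863 higher and 613 lower, and the median of all genes from −0.15 to −0.04. Between the doses, Gramd1a differed by a log2 fold change of 0.12 (R8 minus R4, 95% interval −0.64 to 0.89, adjusted p = 0.881), and R8 exceeded R4 in 3 of 6 lines. In that comparison 0.451% of genes were called.

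Taken by genotype, Gramd1a was 3.62-fold higher with regorafenib in colonoids (95% interval 1.90 to 6.92, limma adjusted p = 0.0112) and 5.28-fold higher in tumoroids (95% interval 2.76 to 10.09, adjusted p = 0.00495). Neither passed the adjusted p of 0.001 set for these comparisons, in which 1.46% and 0.203% of genes were called. In colonoids the calls were 87 higher and 78 lower, or 118 and 59 with TMM scaling. With the line as a block, which compares each line with its own vehicle, both passed, at adjusted p-values of 0.000285 in colonoids and 9.63e-05 in tumoroids, and the genes called as higher were 1.33% and 0.68% of those tested. The responses of the genotypes differed by a log2 fold change of 0.54 (tumoroids minus colonoids, 95% interval −0.78 to 1.87, adjusted p = 1.00). In that test 0.00883% of genes were called, which is the single gene Clca1, named here after its value was seen. Under vehicle, Gramd1a did not differ between genotypes by a detectable amount, with a log2 fold change of 0.06 (tumoroid minus colonoid, 95% interval −1.02 to 1.14, adjusted p = 0.979), and 0.141% of genes were called at an adjusted p under 0.01 and a fold of at least 2.

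**Figure D2:**
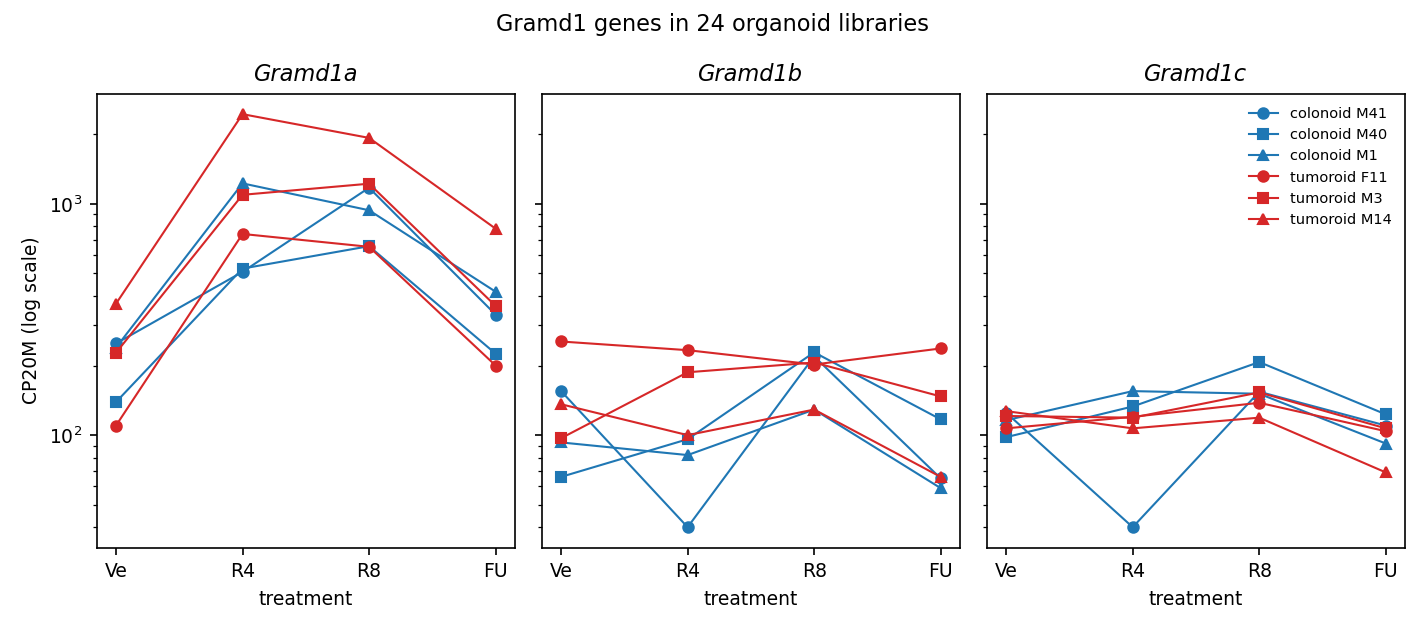
CP20M (log scale) of Gramd1a, Gramd1b and Gramd1c in the 24 organoid libraries, by treatment, with 1 line per organoid line (blue, colonoids; red, tumoroids). All 12 R4 and R8 values of Gramd1a are at or above 508 and all 6 vehicle values at or below 370. The values of Gramd1b and Gramd1c cross between treatments. In the R4 library of colonoid line M41, the Gramd1a value of 508 rests on 13 reads and the 2 points at 40 on 1 read each. The share of all genes that separated as Gramd1a did was not counted.

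Under 5-fluorouracil, whose metabolite inhibits thymidylate synthase, Gramd1a was above vehicle in every line but did not pass the test without the line as a block. The titles of the 3 tumoroid FU libraries call them colonoids, and these libraries were placed by their genotype and library name. The FU values were 332, 225 and 417 CP20M in colonoids M41, M40 and M1 and 200, 362 and 781 in tumoroids F11, M3 and M14. All 6 lines were above their own vehicle, by ratios of 1.33 to 2.11, while only 2 of 6 FU values exceeded the highest vehicle value. In the fit over all 24 organoid libraries the fold was 1.62 (95% interval 0.948 to 2.78, limma adjusted p = 0.384), which did not pass an adjusted p of 0.05, and 2.35% of genes were called, 177 higher and 95 lower, or 213 and 61 with TMM scaling. With the line as a block the same fold had a 95% interval of 1.30 to 2.03 and an adjusted p of 0.0102 and passed, with 3.81% of genes called as higher. The groups ordered by their mean Gramd1a level ran from vehicle (209 ± 60.8 CP20M in colonoids and 236 ± 130 in tumoroids) through FU (325 ± 96.2 and 448 ± 300) to R4 and R8 colonoids (753 ± 410 and 923 ± 259) and R8 and R4 tumoroids (1267 ± 639 and 1426 ± 898; SD, n = 3 each). Neighbours in that order overlapped in their ranges.

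Gramd1b was low in organoids, and no comparison called it. In colonoids M41, M40 and M1 it stood at 155, 66 and 93 CP20M under vehicle, 40, 96 and 82 under R4 and 219, 228 and 129 under R8. In tumoroids F11, M3 and M14 it stood at 254, 97 and 136 under vehicle, 233, 187 and 100 under R4 and 202, 206 and 129 under R8. Its R4 value of 40 in line M41 rests on 1 read (95% counting interval 0.0253 to 5.57 reads). The groups overlapped, and no R4 or R8 value exceeded the highest vehicle value of 254. Regorafenib gave a log2 fold change of 0.17 (95% interval −0.37 to 0.70, limma adjusted p = 0.656). The estimate was −0.16 under R4 (adjusted p = 0.737) and 0.49 under R8 (adjusted p = 0.247), and the difference of R8 from R4 was 0.65 (adjusted p = 0.313), or 0.50 without the shallowest library. Tumoroids differed from colonoids by 0.52 under vehicle (95% interval −0.36 to 1.39, adjusted p = 0.619), and the regorafenib responses of the genotypes differed by −0.03 (adjusted p = 1.00). Under FU the values were 65, 117 and 59 CP20M in colonoids and 237, 147 and 66 in tumoroids, a log2 fold change of −0.22 (adjusted p = 0.832).

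Gramd1c reached 200 CP20M in 1 organoid library and was not in the fit across genes, which needed that level in at least 2. Under vehicle it stood at 125, 98 and 116 CP20M in colonoids M41, M40 and M1 and at 107, 121 and 127 in tumoroids F11, M3 and M14. Under R4 the values were 40, 133 and 155 in colonoids and 120, 119 and 107 in tumoroids, and under R8 they were 151 to 207 in colonoids and 138, 153 and 119 in tumoroids. The R4 value of 40 again rests on 1 read, and 5 of 6 R8 values exceeded the highest vehicle value of 127. The mean of R4 and R8 differed from vehicle within lines by 0.12 ± 0.40 on the log2 scale (SD, n = 6 lines), higher in 4 of 6 (exact two-sided sign-flip permutation test, p = 0.50, where the smallest possible p is 0.0313). Under FU it stood at 110, 123 and 92 CP20M in colonoids and 104, 107 and 69 in tumoroids, a mean difference of −0.18 ± 0.33 (exact permutation p = 0.219). Over the 6 sign-flip tests of Gramd1c that were made in organoids and fibroblasts, the lowest Benjamini-Hochberg adjusted p was 0.75.

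In fibroblasts, Gramd1a was present in every library and moved little with any treatment. In the order of lines M3, M3(2), M1(2) and M11, it stood at 825, 939, 780 and 1067 CP20M under vehicle, at 907, 1403, 949 and 1252 under R4 and at 815, 830, 955 and 1123 under A1. It stood at 906, 1094, 939 and 1102 under R4A1 and, in the first 3 of these lines, at 981, 1116 and 1093 under R10. R4 values were above vehicle in 4 of 4 lines, by ratios of 1.099 to 1.49, and R10 values in 3 of 3, by ratios of 1.19 to 1.40, but the ranges of all groups overlapped. By group mean the order was vehicle (903 ± 128), A1 (931 ± 143), R4A1 (1010 ± 102), R10 (1063 ± 72.2) and R4 (1128 ± 239; SD, n = 4, and n = 3 for R10), with overlapping ranges between neighbours.

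None of the 6 fibroblast comparisons called a member at an adjusted p under 0.05 and a fold of at least 1.5. Gramd1a was 1.23-fold higher under R4 (95% interval 1.00 to 1.52, limma adjusted p = 0.363) and 1.18-fold higher under R10 (95% interval 0.943 to 1.48, adjusted p = 0.342). The calls over all genes were 1.02% under R4, and 3.25% higher and 4.09% lower under R10. With the line as a block, the Gramd1a folds were 1.23 under R4 and 1.24 under R10, with adjusted p-values of 0.0226 and 0.0186, and stayed below the fold of 1.5. The difference between R10 and R4 was −0.06 on the log2 scale (adjusted p = 0.920), with 0.145% of genes called. With the line as a block it was 0.01, and 664 of 11032 genes were called, 110 higher and 554 lower. At the shared dose of 4 µM, the line-wise ratios of Gramd1a to vehicle were thus 2.04 to 6.74 in organoids and 1.099 to 1.49 in fibroblasts, in separately normalized tables and after 6 and 7 days, and this difference was not tested.

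Under autogramin-2, which acts on the GRAMD1A protein, no difference in the RNA of its target was detected. Gramd1a under A1 was 1.03-fold the vehicle level (95% interval 0.836 to 1.27, limma adjusted p = 1.00), higher in 2 of 4 lines. In that comparison 0% of 11032 genes were called, and 120 had an unadjusted p under 0.05. Under R4A1, Gramd1a was 1.12-fold the vehicle level (95% interval 0.910 to 1.38, adjusted p = 0.625), while 1.66% of genes were called. Against R4 alone, R4A1 was lower in 4 of 4 lines, by ratios of 0.780 to 0.999, with a log2 fold change of −0.14 (95% interval −0.44 to 0.16, adjusted p = 0.987). The called share there was 0.00906%, the single gene Txnip, named after its value was seen. With the line as a block, 158 of 11032 genes were called in this comparison, 3 higher and 155 lower. Gramd1a was not among them (log2 fold change −0.14, limma adjusted p = 0.387).

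**Figure D3:**
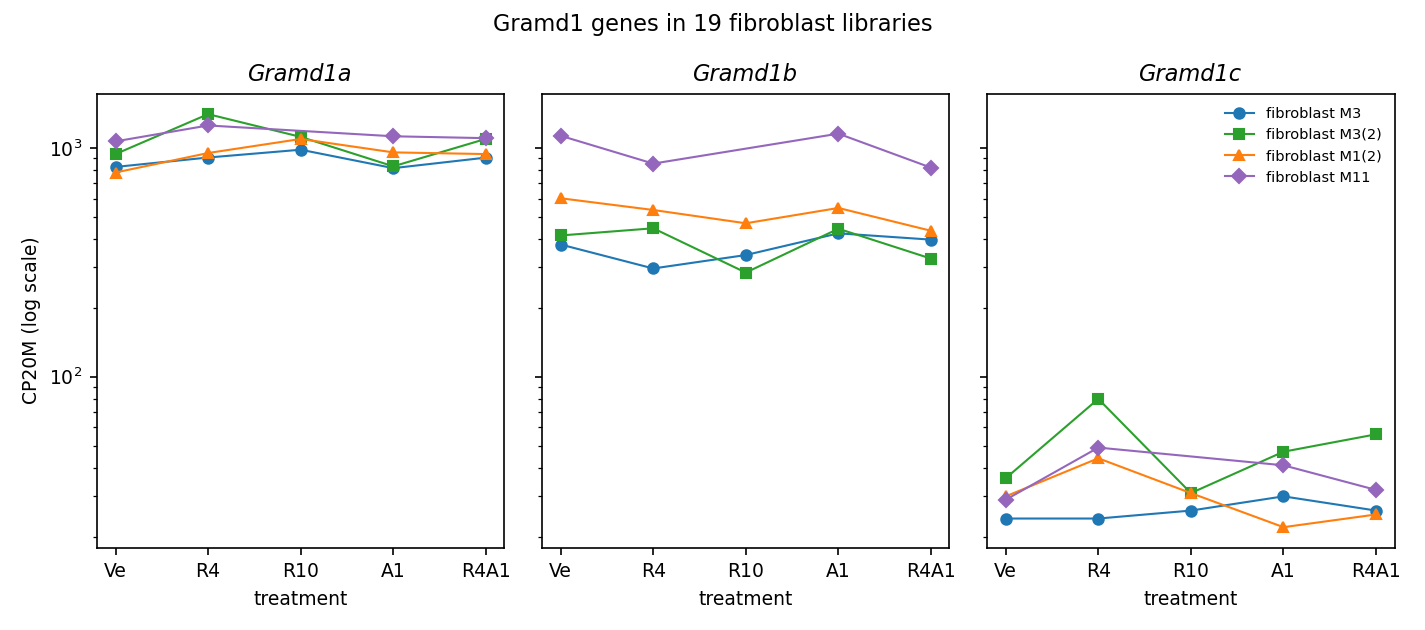
CP20M (log scale) of Gramd1a, Gramd1b and Gramd1c in the 19 fibroblast libraries, by treatment, with 1 line per fibroblast line; line M11 has no R10 point. Gramd1a stays between 780 and 1403 throughout, the 4 values of line M11 lie above all others for Gramd1b, and Gramd1c stays at or below 80.

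Gramd1b was highest in fibroblast line M11 under every treatment that line received, while line M1(2) lay above M3, and M3(2) overlapped both of these. It ranged over 297 to 423 CP20M in line M3, 285 to 445 in M3(2), 434 to 602 in M1(2) and 819 to 1153 in M11, whatever the treatment. The vehicle values in that order of lines were 378, 414, 602 and 1129 CP20M. Under R4 they were 297, 445, 535 and 853, under A1 423, 443, 546 and 1153, and under R4A1 397, 328, 434 and 819. Under R10 they were 340, 285 and 468 in the first 3 lines, each below its own vehicle value, by ratios of 0.688 to 0.899. The limma fit gave log2 fold changes of −0.65 under R10 (95% interval −1.55 to 0.25, adjusted p = 0.353), −0.20 under R4 (adjusted p = 0.891), 0.04 under A1 (adjusted p = 1.00) and −0.29 under R4A1 (adjusted p = 0.796). The R10 group has no library of M11, the line with the most Gramd1b, and with the line as a block the R10 value was −0.37 (95% interval −0.62 to −0.11, adjusted p = 0.0238), a fold of 0.776 that did not reach the threshold of 1.5.

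The line with the most Gramd1b was also the line with the most glia marker RNA and, by its median, the most macrophage marker RNA. The summed level of Sox10, S100b and Elavl4 was 527 to 739 CP20M in line M3, 267 to 477 in M3(2), 1881 to 2256 in M1(2) and 4564 to 5954 in M11. Sox10, a transcription factor of neural crest lineages, was 4330 to 5510 in M11 and 237 to 434 in M3(2). S100b, a calcium-binding protein of glia, was 224 to 441 in M11 and 20 to 42 in M3(2), while the neuronal marker Elavl4 stayed at or below 22 in all 19 libraries. The part of these cells in the Gramd1b level was not tested. Summed macrophage markers were 716 to 6022 CP20M in M11, with a median of 2968.5. They were 611 to 2494 in M3, 449 to 1062 in M3(2) and 517 to 1906 in M1(2), and their part was not tested either. Summed endothelial markers were highest in M3(2), at 4750 to 20692 CP20M, and were 1509 to 6439 in M11.

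**Figure D4:**
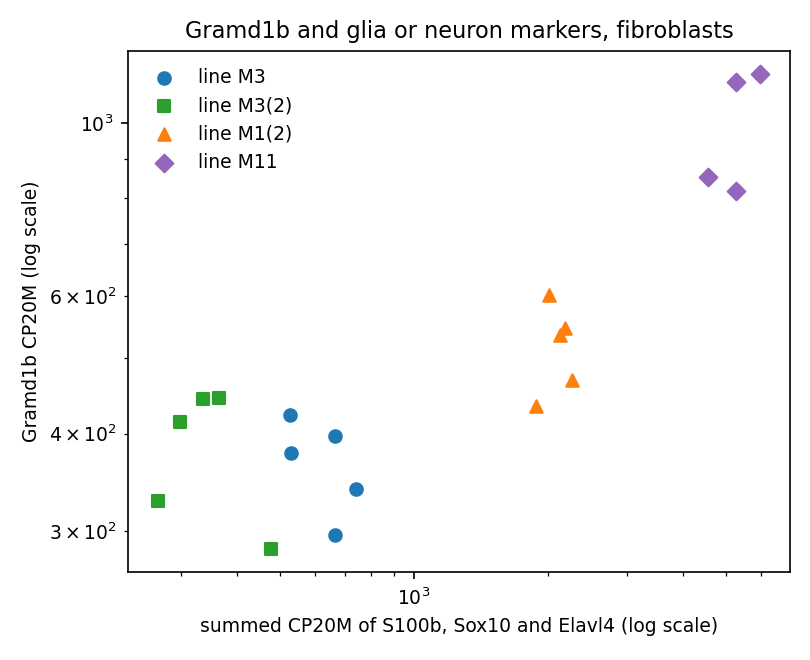
Gramd1b (CP20M, log scale) against the summed CP20M of the glia and neuron markers S100b, Sox10 and Elavl4 (log scale) in the 19 fibroblast libraries, coloured by line. The 4 libraries of line M11 have the highest values on both axes, between 819 and 1153 for Gramd1b, and those of M1(2) come next on the marker axis.

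Gramd1c was near the lower end of detection in fibroblasts, where all 19 values lay between 22 and 80 CP20M and rested on 10 to 36 reads. In the order M3, M3(2), M1(2) and M11, it stood at 24, 36, 30 and 29 CP20M under vehicle and at 24, 80, 44 and 49 under R4. The R10 values were 26, 31 and 31, the A1 values 30, 47, 22 and 41, and the R4A1 values 26, 56, 25 and 32. R4 differed from vehicle by 0.42 ± 0.35 on the log2 scale (SD, n = 4 lines, exact permutation p = 0.25). The exact permutation p-values were 0.375 for A1, 0.625 for R4A1 and 1 for R10. With 4 lines the smallest possible p is 0.125, and with 3 lines it is 0.25, so these tests could not reach 0.05.

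**Figure D5:**
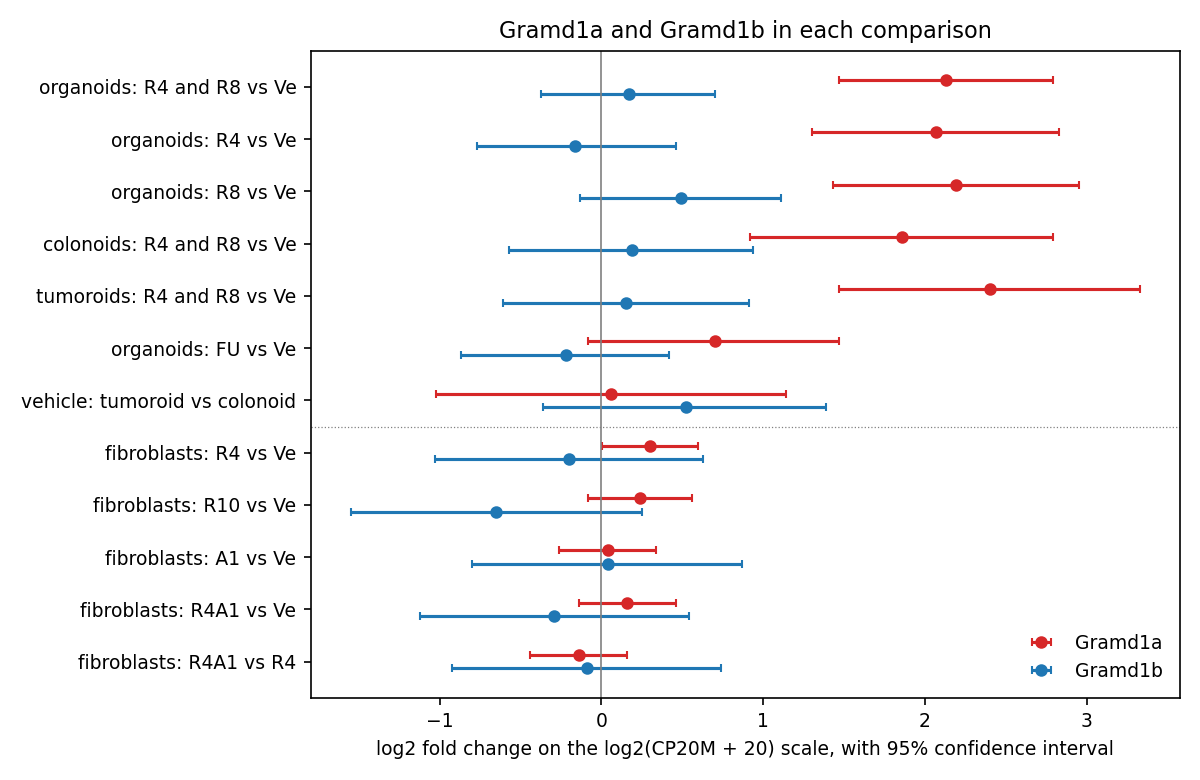
Log2 fold changes with 95% confidence intervals of Gramd1a (red) and Gramd1b (blue) on the log2(CP20M + 20) scale from the limma fits, for 7 organoid comparisons (above the dotted line) and 5 fibroblast comparisons (below it). The Gramd1a intervals of the regorafenib comparisons in organoids lie above 0, from 0.92 to 3.33 at their outermost, while those of fibroblasts lie between −0.44 and 0.60.

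Genes of neighbouring functions were examined as 5 lists in the same fits. Among genes of lipid transfer at membrane contact sites, 27 of 28 were tested in organoids, and regorafenib was accompanied by 3 increases and 1 decrease, beside 2.82% of all genes called as higher and 2.16% as lower. The list median was 0.19 on the log2 scale against −0.10 for all genes tested. Without the shallowest library the counts were 5 and 1, beside 5.75% and 4.26% of all genes. Npc2, which binds cholesterol in lysosomes, rose from 1659 to 2114 CP20M under vehicle to 2576 to 3768 under R4 and 3635 to 4383 under R8 (1.96-fold, limma adjusted p = 7.64e-06). Osbpl3, an oxysterol-binding protein of contact sites, rose from 1212 to 2214 CP20M to 3200 to 4224 and 2218 to 3065 (1.72-fold, adjusted p = 0.000592). The other called genes, named after their values were seen, were Osbpl8 at a log2 fold change of 0.61 and Stard3, a sterol transporter of late endosomes, at −0.77.

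In the same comparison, 2.82% of all genes were called as higher and 2.16% as lower. Of 31 tested genes of autophagosome formation, 1 rose, a share near that of all genes, and none fell, with a median of 0.06. That gene, Zfyve1, which encodes the omegasome protein DFCP1, rose from 695 to 1473 CP20M under vehicle to 1486 to 2085 under R4 and 1248 to 1618 under R8 (1.69-fold, limma adjusted p = 0.000654). In the blocked fit, Atg2a, a lipid transporter of the growing autophagosome, passed as lower as well (log2 fold change −0.64), beside 2.75% of all genes. None of the 17 genes of sterol synthesis and uptake was called, with a median of −0.19, and 1 rose when the shallowest library was left out. None of 6 tested genes of sterol absorption, esterification and efflux was called (median −0.36), and none of 2 tested GRAM-domain relatives (median −0.03). Under FU, the list of lipid transfer had 2 increases among 27 genes, Osbpl3 and Osbpl5, beside 1.53% of all genes called as higher, and no other list had a call. Without the shallowest library, Wipi1 of autophagosome formation (0.62) passed as higher under FU as well, beside 341 of 11526 genes.

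Each dose alone was examined at an adjusted p under 0.05. Under R4, 2 genes of lipid transfer rose and 1 fell, Zfyve1 rose, and the other 3 lists had no call, beside 5.56% of all genes called as higher and 8.07% as lower. Without the shallowest library, which is an R4 library, 6 genes of lipid transfer rose and 2 fell under R4. Zfyve1 and, of the sterol synthesis list, Dhcr7 (0.67) then rose, beside 982 genes called as higher and 849 as lower of 11274. Under R8, 5 of 31 genes of autophagosome formation fell and none rose, beside 8.59% of all genes called as higher and 8.33% as lower. These were Atg2a (log2 fold change −1.05), Atg101 (−0.95), Wdr45 (−0.92), Atg13 (−0.82) and Map1lc3b (−0.66), of which Map1lc3b encodes the autophagosome marker LC3B. Of 6 genes of sterol absorption, esterification and efflux, 2 fell, the sterol exporters Abca1 (−2.26) and Abcg1 (−1.66). Of 17 genes of sterol synthesis and uptake, Dhcr7, a reductase of cholesterol synthesis, rose (0.90), and Fdft1, squalene synthase, fell (−0.62). Among genes of lipid transfer, 4 rose and 1 fell, or 6 and 1 without the shallowest library, and no GRAM-domain relative was called. All genes called under R8 without that library were 1157 higher and 1155 lower of 11274. The list genes of single doses and of FU were named after their values were seen, and a difference between the doses was not tested for them.

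In fibroblasts the called genes of these lists under R10 were all lower in the fit without the line as a block. Of 17 tested genes of sterol synthesis and uptake, 5 fell and none rose, with a median of −0.37 against −0.04 for all genes, beside the 4.09% of all genes called as lower. Insig1, which holds the SREBP machinery in the endoplasmic reticulum, fell from 1655 to 2193 CP20M under vehicle to 844 to 1176 under R10 (0.503-fold, limma adjusted p = 0.00295). Stard4, a soluble cholesterol carrier that stands in this list and in that of lipid transfer, fell from 474 to 810 CP20M to 247 to 315 (0.469-fold, adjusted p = 0.0305), and it was the only call among 26 genes of lipid transfer. When blocked by line, Stard4 and Osbpl3 (−0.81) passed as lower and Osbpl6 (0.83) as higher in the list of lipid transfer, beside 7.71% of all genes called as lower and 6.06% as higher. The other 3, Fdft1, Fdps and Hmgcs1, which were named after their values were seen and encode enzymes of the pathway, had log2 fold changes of −0.62 to −0.67. The count of this list was again 5 when blocked by line, made up of Insig1, Stard4 and Fdps together with Cyp51 and Idi1 in place of Fdft1 and Hmgcs1.

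Of 5 tested genes of sterol absorption, esterification and efflux, 2 fell under R10, beside the 4.09% of all genes called as lower. Abcg1, a sterol exporter, fell from 131 to 345 CP20M under vehicle to 53 to 112 under R10 (0.405-fold, limma adjusted p = 0.0137), and Soat1, which esterifies cholesterol, from 3387 to 4930 CP20M to 2214 to 2722 (0.606-fold, adjusted p = 0.00199). Of 31 genes of autophagosome formation, 2 fell, a share near that of all genes. Atg101, a subunit of the ULK1 complex, fell from 304 to 403 CP20M to 202 to 259 (0.618-fold, adjusted p = 0.0142), and Sqstm1, the cargo receptor p62, from 18760 to 25701 CP20M to 13378 to 15008 (0.622-fold, adjusted p = 0.000926). Gramd4, a GRAM-domain relative, fell from 1351 to 1724 CP20M to 743 to 1000 (0.578-fold, adjusted p = 0.00506). The summed macrophage markers were 587 to 611 CP20M in R10 libraries, 449 to 716 in R4A1 libraries and 1062 to 6022 in vehicle fibroblasts, with Lyz2 at 186 to 4214 and Ptprc at or below 133 over all 19 libraries. The summed smooth muscle and pericyte markers were 2455 to 7360 CP20M in vehicle fibroblasts, 1644 to 5829 under A1, 4418 to 10734 under R4A1, 7207 to 16849 under R4 and 11026 to 14975 under R10, with Cnn1 at 1072 to 13621, Myh11 at 491 to 4642, Des at 22 to 167 and Rgs5 at 4 to 38 over all libraries. The part of these marker changes in the differences of the lists, and in the Gramd1 values of fibroblasts, was not tested. Under R4 no gene of the lists was called, and under R4A1 Gramd4 alone was, as lower. In the blocked fit, Osbpl6 (0.67) passed as higher under R4, beside 4.58% of all genes. Under R4A1, Gramd4, Osbpl3 (−0.64) and Abcg1 (−1.08) then passed as lower, beside 4.33% of all genes, and Osbpl6 (0.60) as higher, beside 2.66%. Under A1 no gene of the 5 lists was called, and the list medians lay between −0.10 and 0.01.

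The genes whose level followed a member most closely were described by Pearson's r of log2(CP20M + 20), without a test, since libraries share lines, treatments and depth. Over the 24 organoid libraries, Gramd1a was most like Rem2, a small GTPase of the RGK family (r = 0.93), Itm2a (r = 0.93) and Itm2c (r = 0.90), both BRICHOS-domain membrane proteins. Rem2 stood at 55 to 191 CP20M under vehicle, 270 to 1545 under R4 and 403 to 1211 under R8, and Itm2a at 18 to 78, 157 to 1153 and 578 to 1555. For Gramd1b the closest were Pcdh19, a protocadherin (r = 0.84), Isoc1 (r = 0.80) and the nuclear pore gene Nup160 (r = 0.79), and the shallowest library held the lowest value of all 24 for each of these genes, as it did for Gramd1b. Over the 19 fibroblast libraries, Gramd1a was closest to Plekhg5, Arid4b and Ier5l (r = 0.91, 0.91 and 0.90), and Gramd1b to Gas7, Glp2r and Csmd1 (r = 0.97 each). These last 3 followed the lines too, with Gas7 at 2039 to 4182 CP20M in M3 and M3(2) and at 19557 to 37500 in M11, and Glp2r, the receptor of glucagon-like peptide 2, at 91 to 197 and 739 to 1417.

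Some annotated genes share sequence positions with the members. G630030J09Rik, an antisense gene that overlaps Gramd1a by 3180 bases, ranged from 8 to 186 CP20M in organoids and from 52 to 90 in fibroblasts. 1700110K17Rik, antisense to Gramd1b over 20139 bases, ranged from 0 to 23 CP20M in organoids and from 8 to 46 in fibroblasts. Whether counting used the strand is not given in the sources used here, so reads of a member and of its antisense partner may not have been told apart. The remaining overlapping genes stood at or below 14 CP20M in every library.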

How the data were processed

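RNA sequencing of 24 organoid and 19 fibroblast libraries was analysed from 2 deposited tables. Per the study's methods and the submitters' processing notes, reads were trimmed with Trimmomatic 0.36, aligned to GRCm38 with STAR 2.5.3a and counted per Ensembl gene with HTSeq 0.9.1. The authors then scaled each library to 20000000 counted reads and rounded up (CP20M), so the deposited values are a scaled signal and not raw counts. The authors' own tests used edgeR on such values. The library kit of the organoids is described differently in the labels and in the methods, and the strand setting of the counting is not given in the sources used here.

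Groups were taken from the labels. The fits were made on log2(CP20M + 20) with limma (version 3.58.1, under R 4.3.3), with 1 coefficient per group and eBayes with trend. A gene entered a fit if 2 or more of its libraries reached 200 CP20M, and p-values were adjusted by the Benjamini-Hochberg method over all genes tested. Thresholds on the adjusted p and the fold follow the study where it states them. A member below the filter was tested by exact two-sided sign flips of its line-wise differences. Because the values are scaled and rounded up, a count test was not used. Depth was estimated from the step between low values, since 1 read equals a fixed CP20M in a library, and counting intervals are exact Poisson intervals at 95% that cover counting error only. Gene lengths and positions are from GENCODE M21, to which 52489 of 52636 gene IDs matched. Scripts were tested on simulated data.

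Libraries of 1 line come from 1 mouse, so the lines pair the treatments. Deviations from the group means correlated with a mean r of 0.5 over 36 same-line pairs of organoid libraries (34 over 0.1) and of 0.72 over 36 pairs of fibroblast libraries (36 over 0.1). The line was used as a block in an alternative fit. No 2 libraries of a group held identical values. Named genes were the 3 members, the 2 called genes with the largest change of each list in the regorafenib comparison of organoids and the R10 comparison of fibroblasts, the 3 genes most like a member by Pearson's r, and genes that overlap a member. The members, lists and tests were chosen with earlier results of these data known, and 2 genes of the sterol synthesis list and 1 glia marker are not reported here.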

Additional observations from a re-analysis of the deposited data

Results flagged for a closer look

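The A1 library of fibroblast line M11 stood apart for Gramd1b. It held 1153 CP20M, whereas the A1 libraries of the other 3 lines held 423 to 546, a gap of 0.83 of the range of the 4 values, just over the limit of Dixon's test. The 3 genes were examined in the same 4 groups of 4 libraries, and of these 12 sets of values 1 was picked out in this way, and chance picks out about 1 in 20 groups. Line M11 was also the highest in its vehicle, R4 and R4A1 libraries, with Gramd1b at 819 to 1129 CP20M.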

How the results depend on the processing

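Of the results that answer a comparison, 353 values kept their direction and side of the threshold. Another 20 changed sign, 6 passed the threshold only in the alternative setting and 3 no longer passed it. With the line as a replicate block, Gramd1a passed the threshold for regorafenib in colonoids (log2 fold change 1.86, and 2.05 also without the shallowest library), in tumoroids (2.40 in both) and for 5-fluorouracil (0.70 in both), and the block changed no other call of a member. The sign changed, in results that passed no threshold, for Gramd1b under R4 in organoids (0.08, replicate block without the shallowest library), for Gramd1a between R8 and R4 (−0.06, same setting) and for Gramd1a between R10 and R4 in fibroblasts (0.01, replicate block). The cause was not tested.

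With each line left out in turn, Gramd1a under regorafenib in organoids ranged from 2.07 to 2.2 and missed the adjusted p of 0.001 in 3 of 6 cases. Values around 0 changed sign. For Gramd1a the ranges were −0.32 to 0.48 between genotypes under vehicle, −0.08 to 0.31 for R8 against R4, −0.04 to 0.11 for A1 and −0.16 to 0.01 for R10 against R4. For Gramd1b they were −0.03 to 0.35 for regorafenib in organoids, −0.21 to 0.55 in colonoids, −0.22 to 0.34 in tumoroids, −0.40 to 0.36 for the difference between genotypes, −0.37 to 0.13 for R4 in organoids, −0.004 to 0.09 for A1 and −0.26 to 0.02 for R4A1 against R4. For Gramd1c they were −0.05 to 0.05 for R10 and −0.0007 to 0.20 for R4A1.

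The number of genes called is given from its lowest to its highest value over the settings run. For regorafenib in organoids it was 755 with the replicate block, 1128 without the shallowest library and 1428 with both. In organoids it went from 155 to 1428 around 563 for regorafenib, 1 to 750 around 165 in colonoids, 0 to 403 around 23 in tumoroids, 813 to 2030 around 1542 for R4, 1260 to 2517 around 1915 for R8, 0 to 295 around 51 for R8 against R4, 26 to 810 around 272 for 5-fluorouracil and 0 to 84 around 16 between genotypes. In fibroblasts it went from 28 to 797 around 113 for R4, 358 to 1519 around 809 for R10, 32 to 771 around 183 for R4A1, 0 to 158 around 1 for R4A1 against R4 and 0 to 664 around 16 for R10 against R4, while A1 had 0 under all settings run, with 48 to 943 genes at an unadjusted p under 0.05. The planned count tests with edgeR and DESeq2 were not run, since the values are scaled and rounded up. Depth limits Gramd1b and Gramd1c most, which rest on 1 read each in the shallowest library.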
